A study of Mus musculus with 6 samples.

Results

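Macrophages and other myeloid cells of the mouse embryo first arise in the yolk sac, the membrane in which blood is first made, and 33 genes that mark these cells were described in yolk sacs of embryonic day 9.5. They are the rows of the deposited count table whose symbols belong to a set list of macrophage, granule and myeloid progenitor genes, 33 of 25239 genes. The 3 libraries labelled DKO (also Cdx-DKO) are of mixed background and genotype Cdx1-/-, Cdx2 fl/fl with Actin::CreERT, a tamoxifen-activated Cre named for an actin promoter, which is active in most cell types. Tamoxifen was given at embryonic day 5.5. The 3 wild-type (WT) libraries came from untreated embryos of the CD1 strain. Strain, genotype and tamoxifen all differ between the groups and cannot be told apart. The labels do not say whether a library is 1 yolk sac or a pool, or whether litters were shared. The p-values therefore cover no more than the spread between these libraries, which may be technical.

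In the mouse, early yolk sac macrophages arise from erythro-myeloid progenitors before definitive blood stem cells exist. They depend on the transcription factor PU.1, the product of Spi1, and on signalling through the receptor Csf1r. Maturing macrophages gain the chemokine receptor Cx3cr1, the surface protein F4/80 (Adgre1), complement C1q and scavenger receptors. Granulocyte progenitors instead fill azurophil granules with myeloperoxidase and serine proteases.

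Library totals were 24242663 to 56732836 counts in the libraries labelled DKO and 20040601 to 26855337 counts in WT. The targeted gene Cdx2 stood at 23.4, 24.0 and 25.1 CPM (counts scaled to a common library total) in DKO-labelled libraries 1, 2 and 3, against 16.7, 18.9 and 20.5 CPM in WT libraries 1, 2 and 3. Cdx1 had 10, 14 and 14 counts (0.412, 0.359 and 0.247 CPM) in the libraries labelled DKO, against 0, 1 and 8 counts (0, 0.0487 and 0.399 CPM) in WT. Neither gene had a lower mean CPM in the libraries labelled DKO, though libraries 2 and 3 lay below WT library 3 for Cdx1. The counts span whole genes with no statement of which part was deleted, so the groups below go by their labels. Markers of the yolk sac were abundant in every library: Afp, the main secreted protein of its visceral endoderm, ran from 2261 to 30418 CPM in the libraries labelled DKO and from 6803 to 9886 CPM in WT. Library 3 labelled DKO stood apart from the other libraries for many of the myeloid genes, as it did for markers of other tissues that are given beside the results.

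Most macrophage genes were highest in library 3 labelled DKO and low elsewhere, and 16 of the 33 genes were under 1 CPM in every WT library. Of the 33 genes, 31 had a count, and Timd4 and Elane had none in any library. Library 3 labelled DKO held the highest level of 23 of these 31 genes (74.2%), beside 31.1% of all 20056 genes with a count. Library 1 labelled DKO held the lowest level of 13 (41.9%), beside 18.7% of all genes. The median log2 difference from the WT mean over the 31 genes was -0.52, 0.62 and 1.79 in DKO-labelled libraries 1, 2 and 3, while the median over the 14002 genes tested was 0.01, 0.00 and 0.01. These are bulk libraries, in which fewer cells of a type and less RNA per cell cannot be told apart.

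**Figure D1:**
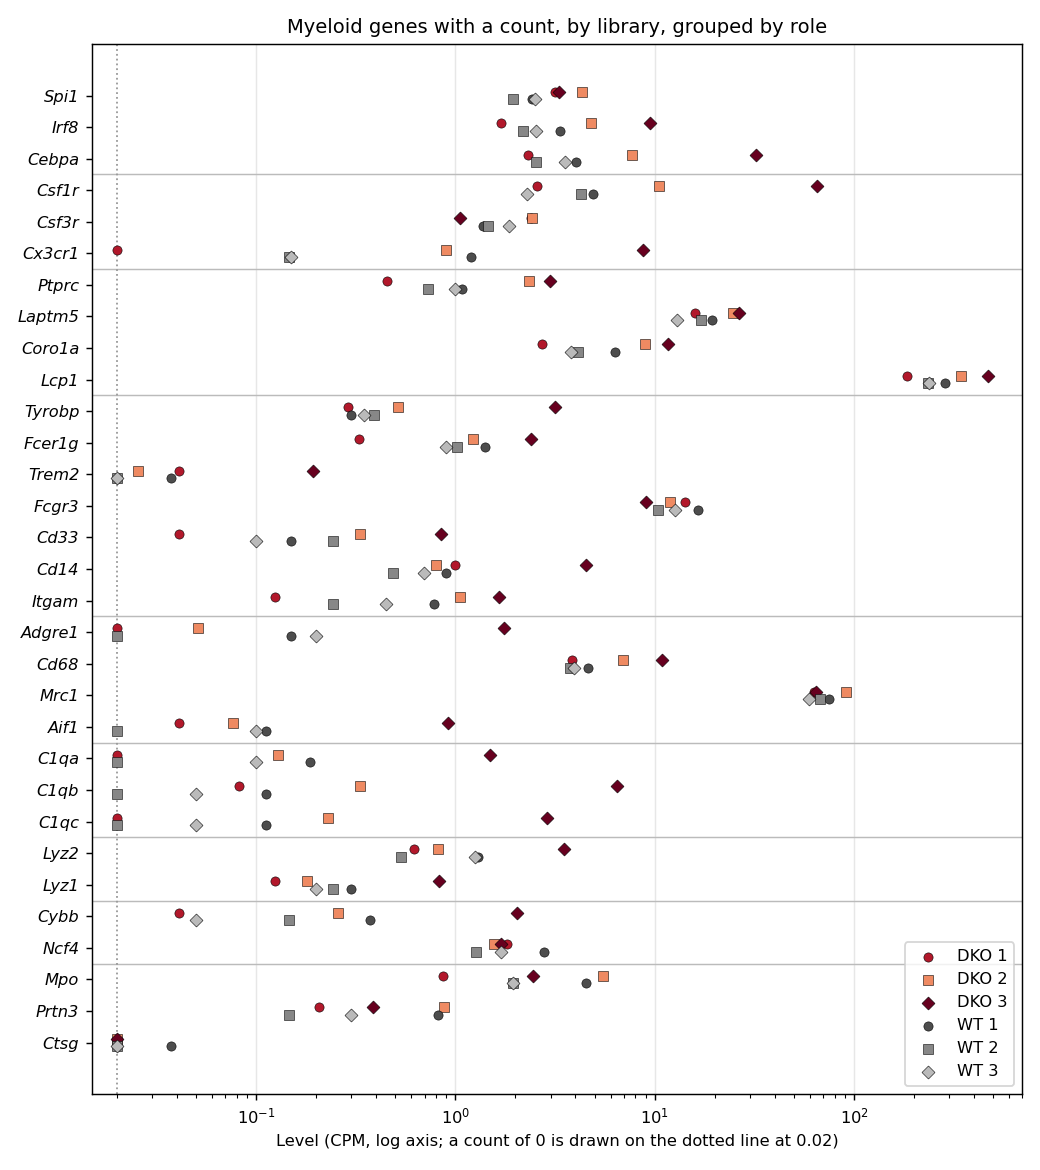
Level of each of the 31 myeloid genes with a count, in CPM on a log axis, with 1 symbol per library and genes grouped by role (libraries labelled DKO in red and orange, WT in grey). Library 3 labelled DKO (dark diamonds) is the highest for 23 of the genes, and the 8 others are Spi1, Csf3r, Mrc1, Fcgr3, Ncf4, Mpo, Prtn3 and Ctsg.

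No myeloid gene differed between the groups past the threshold of the main test. The quasi-likelihood test of edgeR, with Benjamini-Hochberg adjustment over all genes and a threshold of 0.05, could be run on 19 of the 33 genes, since 12 others with counts were removed by the filter on low counts. It called 0 of the 19 (2 at an unadjusted p under 0.05), beside 5 of 14002 genes (0.0357%) in the whole table. At an unadjusted p under 0.05, 2 of the 19 were higher (Csf1r and Spi1) and 0 lower, where 5.55% of all genes were higher and 3.54% lower. Fold changes were positive in 17 of the 19, beside 51.9% of all genes, with a median log2 fold change of 0.73 beside 0.01 over all genes. DESeq2, which also tested most of the low genes, called 1 of 28, C1qb, which was higher, beside 1.92% of all genes called in either direction and 1.16% called higher.

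Leaving out single libraries changed these counts. Without library 1, edgeR called Ptprc (log2 fold change 1.53, SE 0.30, adjusted p 0.0490) and no other myeloid gene, beside 4.42% of all genes. DESeq2 without that library called 11 of 28, all higher, beside 20.1% of all genes. They were C1qb, C1qc, Cd68, Cebpa, Coro1a, Csf1r, Irf8, Laptm5, Lcp1, Ptprc and Tyrobp. Without library 3 edgeR called 0 of 20, with 1 at an unadjusted p under 0.05, beside 0.0567% of all genes, and the median log2 fold change was 0.30. DESeq2 without library 3 called 0 of 25, beside 1.63% of all genes. Without library 2 it called 1 of 29, beside 1.02%, and without WT library 1, 2 or 3 it called 0 of 29 each time, beside 0.713%, 0.639% and 0.887% of all genes.

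**Figure D2:**
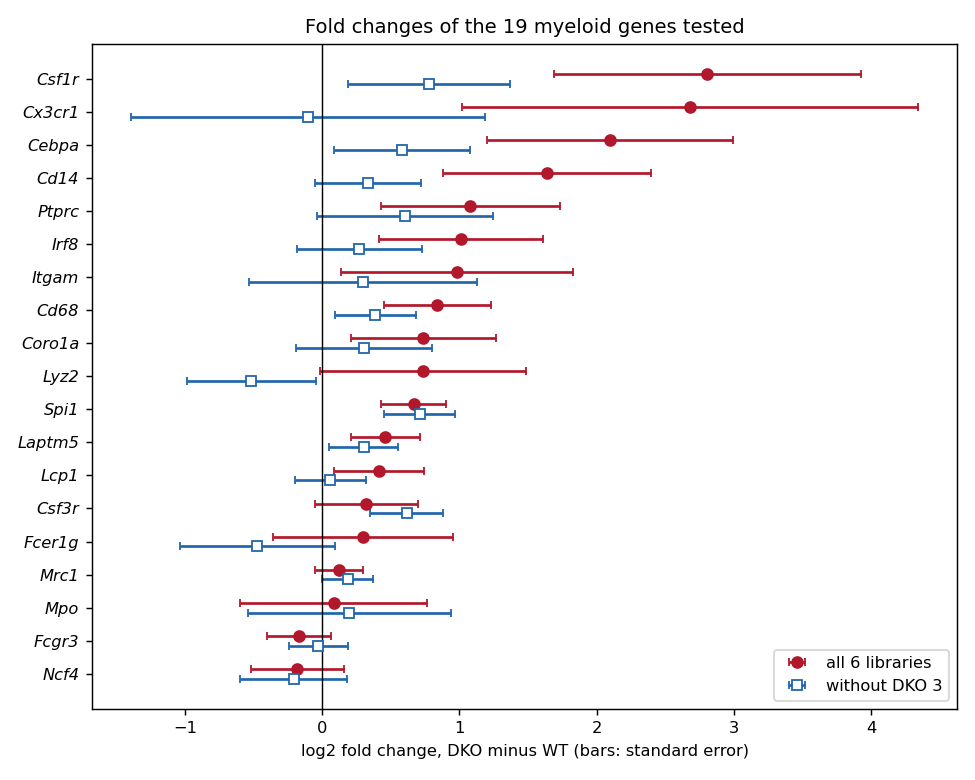
Log2 fold changes of the 19 myeloid genes tested, libraries labelled DKO minus WT, with standard errors, from edgeR with all 6 libraries (filled circles) and without library 3 labelled DKO (open squares). Csf1r stands at 2.81 with all libraries and at 0.78 without library 3, whereas Spi1 stands at 0.67 and 0.71.

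Among the lineage factors, Spi1 encodes PU.1, the master regulator of macrophage fate. Its level was 3.18, 4.33 and 3.30 CPM in DKO-labelled libraries 1, 2 and 3, against 2.42, 1.95 and 2.49 CPM in WT libraries 1, 2 and 3. Its lowest DKO-labelled library was above its highest WT library, which held for no other myeloid gene and for 7.56% of all genes with a count. All lay below WT for 0 of the 31, beside 6.17% of all genes. The log2 fold change was 0.67 (SE 0.24, adjusted p 0.497 by edgeR). Spi1 was among the genes not highest in library 3, where its level was 1.44 times the WT mean. Mrc1, at 0.953 times its WT mean there, and Fcgr3, at 0.682 times, were others.

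Cebpa encodes a factor that drives granulocyte and monocyte commitment and is also used by hepatocytes. It stood at 2.31, 7.72 and 32.1 CPM in DKO-labelled libraries 1, 2 and 3, against 4.02, 2.53 and 3.54 CPM in WT. Library 3 was high, library 2 lay above WT and library 1 below it. The log2 fold change was 2.10 (SE 0.89, adjusted p 0.556 by edgeR), and 0.58 without library 3. Irf8, a factor of monocyte and macrophage development, followed the same order at 1.69, 4.77 and 9.48 CPM in DKO-labelled libraries, against 3.35, 2.19 and 2.54 CPM in WT. Its log2 fold change was 1.01 (SE 0.60, adjusted p 0.638 by edgeR), and 0.27 without library 3.

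Csf1r, the receptor for the macrophage growth factors Csf1 and Il34, showed the highest fold change among the 19 myeloid genes tested by edgeR. Its level was 2.56, 10.5 and 65.3 CPM in DKO-labelled libraries 1, 2 and 3, against 4.92, 4.29 and 2.30 CPM in WT. The groups overlapped, since library 1 lay within the WT range. The log2 fold change was 2.81 (SE 1.12, adjusted p 0.539 by edgeR), and 0.78 (SE 0.59) without library 3. In GRCm38 the gene lies on chromosome 18 from 61105572 to 61131139, and 873 bases of its exons (15.1%) overlap exons of Hmgxb3 on the other strand. Hmgxb3 did not share the pattern, with 73.7, 56.0 and 57.5 CPM in the libraries labelled DKO and 62.6, 71.2 and 65.6 CPM in WT.

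Csf1r is also transcribed in mouse trophoblast, and trophoblast markers were high in library 3 labelled DKO as well. Of 12 such markers 11 had a count and 1, Ctsq, had none, and 8 of the 11 were highest in that library. Summed without Hand1, which mesoderm also makes, they reached 54.4 to 383 CPM in the libraries labelled DKO and 18.2 to 49.1 CPM in WT. DESeq2 called 3 of them higher, Rhox6, Rhox9 and Hsd3b6, beside 1.16% of all genes called higher. Rhox6, a homeobox gene, stood at 36.2, 32.8 and 59.0 CPM in DKO-labelled libraries 1, 2 and 3, against 17.0, 21.9 and 10.9 CPM in WT (log2 fold change 1.38, SE 0.33, adjusted p 0.330 by edgeR and 0.00708 by DESeq2). Rhox9, its relative, stood at 19.8, 8.89 and 21.3 CPM in those libraries, against 3.65, 7.94 and 2.15 CPM in WT. Hsd3b6, a steroid enzyme of giant cells, stood at 3.34, 9.18 and 12.7 CPM in the libraries labelled DKO, against 2.57, 2.29 and 1.5 CPM in WT. All 3 genes, which were picked by that call, lay above WT in every library labelled DKO, as did 7.56% of all genes with a count. Prl3d1, a hormone gene of trophoblast giant cells, stood at 3.42, 0.256 and 54.2 CPM in DKO-labelled libraries 1, 2 and 3, against 0.447, 4.82 and 0.200 CPM in WT. In library 2, where Csf1r was 10.5 CPM, Prl3d1 was within the WT range, while Rhox6, Rhox9 and Hsd3b6 were above it. The part of trophoblast in the Csf1r level was not tested.

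Cx3cr1, the fractalkine receptor of maturing macrophages, had 0, 35 and 493 counts in DKO-labelled libraries 1, 2 and 3, against 32, 3 and 3 counts in WT. These counts correspond to 0, 0.897 and 8.69 CPM in the libraries labelled DKO, against 1.19, 0.146 and 0.150 CPM in WT. Library 3 alone was high, and WT library 1 lay above the other WT libraries. Its log2 fold change was 2.68 (SE 1.66, adjusted p 0.649 by edgeR), and -0.10 without library 3. Csf3r, the receptor of the neutrophil growth factor G-CSF, was lowest in library 3. It stood at 2.39, 2.41 and 1.06 CPM in DKO-labelled libraries 1, 2 and 3, against 1.38, 1.46 and 1.85 CPM in WT (log2 fold change 0.32, SE 0.37, adjusted p 0.781 by edgeR).

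**Figure D3:**
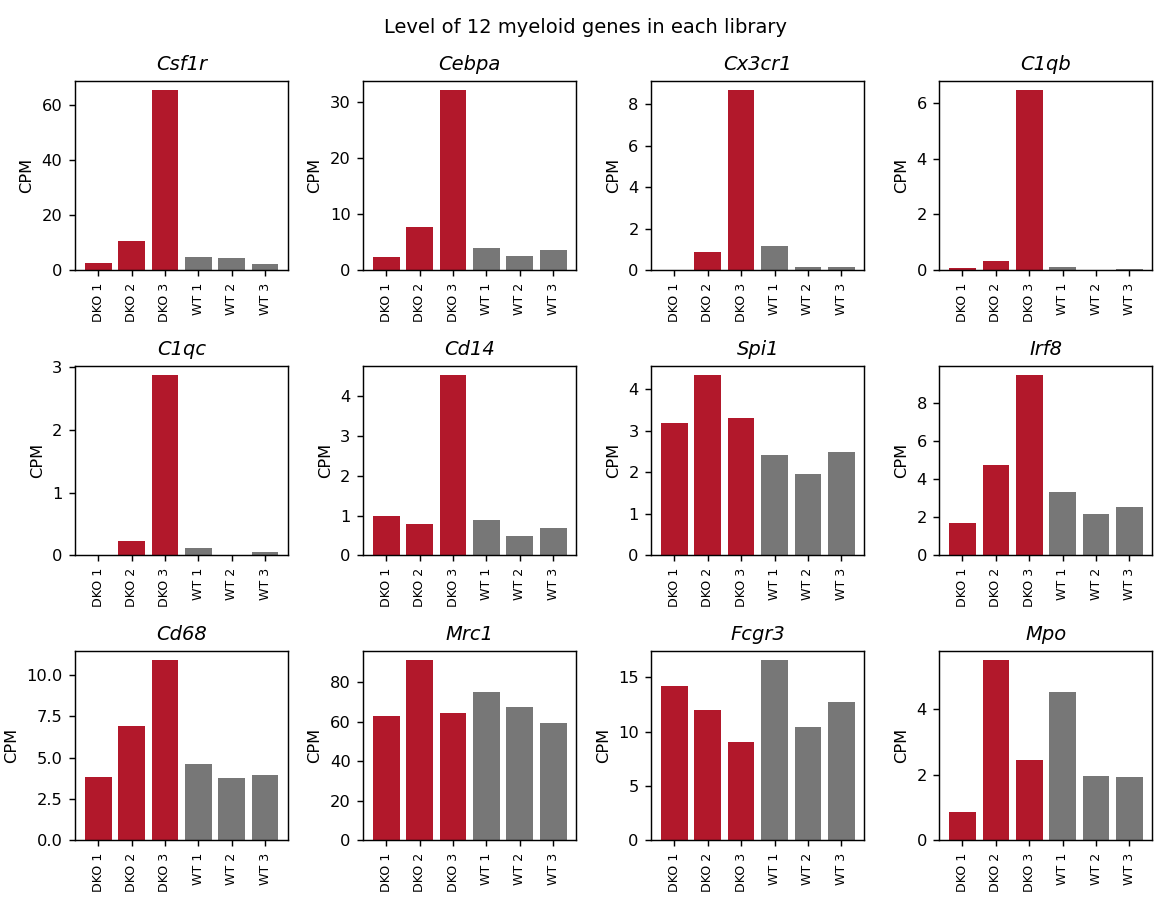
Level in CPM of 12 myeloid genes in each library, on linear axes from 0 (libraries labelled DKO in red, WT in grey, 1 bar per library with no error). Csf1r, Cebpa, Cx3cr1, C1qb, C1qc and Cd14 are highest in library 3 labelled DKO, whereas Spi1, Mrc1, Fcgr3 and Mpo are not highest there.

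The 3 chains of complement C1q, which tissue macrophages secrete to tag debris, were close to absent outside library 3 labelled DKO. C1qb had 2, 13 and 366 counts in DKO-labelled libraries 1, 2 and 3, against 3, 0 and 1 counts in WT. C1qc had 0, 9 and 163 counts in the libraries labelled DKO, against 3, 0 and 1 counts in WT, and C1qa had 0, 5 and 85 counts in DKO-labelled libraries, against 5, 0 and 2 counts in WT. All 3 chains were highest in library 3, where C1qb reached 6.45 CPM (exact Poisson 95% interval 5.81 to 7.15, counting error only). The floor of 3 counts was 0.0529 to 0.124 CPM in the libraries labelled DKO and 0.112 to 0.150 CPM in WT. None of the chains passed the filter for edgeR.

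DESeq2 gave C1qb an adjusted p of 0.0365, with a log2 fold change of 5.39. Leaving out library 3 labelled DKO gave a log2 fold change of 1.92 with an adjusted p of 0.999. Leaving out WT library 1, 2 or 3 gave log2 fold changes of 6.56, 4.83 or 5.32, with adjusted p of 0.183, 0.258 or 0.269. Without library 1 or 2 labelled DKO the adjusted p was 0.000292 or 0.0428. The chains share no stretch of 50 bases in their whole mRNAs, the length of these reads.

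The PU box, GAGGAA, is the core of sites bound by PU.1, and the 250 bases before the RefSeq start of 4 of the genes are shown to set genes that were high in library 3 (C1qb, C1qc and Cx3cr1) beside a granule gene that was not (Mpo). Capitals mark each PU box on either strand, and sequences run 5′ to 3′ on the strand of the gene (RefSeq, GRCm38.p6).
C1qb, chr4:136886201-136886450, minus strand: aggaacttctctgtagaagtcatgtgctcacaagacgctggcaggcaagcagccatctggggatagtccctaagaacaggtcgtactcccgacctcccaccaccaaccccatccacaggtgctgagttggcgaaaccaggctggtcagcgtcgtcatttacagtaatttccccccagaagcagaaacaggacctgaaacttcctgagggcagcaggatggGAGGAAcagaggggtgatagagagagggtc
C1qc, chr4:136892915-136893164, minus strand: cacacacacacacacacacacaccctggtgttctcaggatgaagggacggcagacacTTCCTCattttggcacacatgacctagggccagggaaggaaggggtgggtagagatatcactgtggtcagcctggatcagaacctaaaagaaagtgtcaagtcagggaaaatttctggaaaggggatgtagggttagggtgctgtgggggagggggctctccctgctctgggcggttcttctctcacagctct
Cx3cr1, chr9:120068297-120068546, minus strand: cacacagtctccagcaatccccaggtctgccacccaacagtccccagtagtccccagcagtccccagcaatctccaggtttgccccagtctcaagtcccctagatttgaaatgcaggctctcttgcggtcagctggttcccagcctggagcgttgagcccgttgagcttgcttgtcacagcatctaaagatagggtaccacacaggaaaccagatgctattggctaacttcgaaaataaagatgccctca
Mpo, chr11:87793534-87793783, plus strand: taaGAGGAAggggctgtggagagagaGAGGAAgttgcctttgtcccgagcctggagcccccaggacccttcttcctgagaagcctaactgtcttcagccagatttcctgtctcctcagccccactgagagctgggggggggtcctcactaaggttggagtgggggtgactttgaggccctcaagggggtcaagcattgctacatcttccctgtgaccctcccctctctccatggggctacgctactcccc

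C1qb and C1qc held 1 PU box each, Cx3cr1 held 0 and Mpo held 2. A promoter was matched for 26 of the 33 genes by symbol, and GAGGAA on either strand was found in 16 of them (61.5%), beside 25.9% of the 27025 genes in the RefSeq promoter table. The longer forms AGGAAGT and GAGGAAGT, which overlap it, were found in 10 (38.5%, beside 8.8%) and 4 (15.4%, beside 2.79%). The RUNX core TGTGGT was found in 6 (23.1%, beside 15.9%) and the C/EBP palindrome TTGCGCAA in 0, beside 0.185%. These matches describe letters in a window and were not tested for binding.

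Surface proteins of macrophages included low genes that were highest in library 3 and the abundant Mrc1, which was not. Adgre1 (F4/80) had 0, 2 and 99 counts in DKO-labelled libraries 1, 2 and 3, against 4, 0 and 4 counts in WT. Aif1, the cytoskeletal protein Iba1, had 1, 3 and 52 counts in DKO-labelled libraries, against 3, 0 and 2 counts in WT. Outside library 3 both genes thus had at most 4 counts in any library. Timd4, a receptor for dying cells on some resident macrophages, had 0 counts in all 6 libraries, which by the floor of 3 counts allows up to 0.150 CPM in the shallowest (exact Poisson 95% upper limit 0.184 CPM).

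Cd68, a lysosomal protein of macrophages, stood at 3.84, 6.89 and 10.9 CPM in DKO-labelled libraries 1, 2 and 3, against 4.62, 3.75 and 3.94 CPM in WT. Library 1 lay within the WT range and libraries 2 and 3 above it (log2 fold change 0.84, SE 0.39, adjusted p 0.586 by edgeR, and 0.39 without library 3). Mrc1, the mannose receptor, which macrophages share with some endothelium, was abundant in every library. Its level was 63.0, 91.0 and 64.2 CPM in DKO-labelled libraries 1, 2 and 3, against 75.2, 67.6 and 59.4 CPM in WT. Library 3 lay within the WT range, and the log2 fold change was 0.12 (SE 0.18, adjusted p 0.821 by edgeR).

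Of 7 adaptors and receptors of activating and inhibitory signals, 6 were highest in library 3. Tyrobp, the adaptor DAP12, had 7, 20 and 179 counts in DKO-labelled libraries 1, 2 and 3, against 8, 8 and 7 counts in WT. Fcer1g, the gamma chain of Fc receptors, stood at 0.330, 1.23 and 2.40 CPM in DKO-labelled libraries, against 1.41, 1.02 and 0.898 CPM in WT. Library 1 lay below WT and library 3 above it, and the log2 fold change of Fcer1g was 0.30 with all libraries and -0.47 without library 3. Trem2, a lipid receptor that signals through Tyrobp, had 1, 1 and 11 counts in DKO-labelled libraries, against 1, 0 and 0 counts in WT.

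Cd14, a co-receptor for bacterial lipopolysaccharide, stood at 0.990, 0.795 and 4.53 CPM in DKO-labelled libraries 1, 2 and 3, against 0.894, 0.487 and 0.699 CPM in WT. Library 3 was high and library 2 lay within the WT range (log2 fold change 1.64, SE 0.76, adjusted p 0.584 by edgeR, and 0.33 without library 3). Cd33, an inhibitory lectin, and Itgam, the integrin CD11b, were also highest in library 3. Cd33 had 1, 13 and 48 counts in DKO-labelled libraries 1, 2 and 3, against 4, 5 and 2 counts in WT. Itgam had 3, 41 and 94 counts in those libraries, against 21, 5 and 9 counts in WT. Values of Itgam are uncertain, since 68.7% of its exon bases are shared with an overlapping gene model on the same strand, Gm49368.

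Fcgr3, a low-affinity receptor for immunoglobulin G, did not share the pattern. Its level was 14.2, 12 and 9.01 CPM in DKO-labelled libraries 1, 2 and 3, against 16.5, 10.4 and 12.7 CPM in WT. Library 3 was the lowest of the 6, and the log2 fold change was -0.17 (SE 0.23, adjusted p 0.813 by edgeR). Fcgr3 was above its adaptor Fcer1g in every library on the scale of reads per length. It averaged 6.76 RPKM (CPM per kilobase of merged exons) in the libraries labelled DKO and 7.61 RPKM in WT, while Fcer1g averaged 1.51 RPKM in the libraries labelled DKO and 1.27 RPKM in WT.

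Among proteins made by all leukocytes, Lcp1 was the most abundant of the 33 genes in CPM, and the others were lower. Lcp1 encodes L-plastin, an actin-bundling protein, and stood at 184, 344 and 469 CPM in DKO-labelled libraries 1, 2 and 3, against 285, 236 and 238 CPM in WT. Library 1 lay below all WT libraries and libraries 2 and 3 above them, so the log2 fold change was 0.41 (SE 0.33, adjusted p 0.702 by edgeR) with all libraries, 0.71 without library 1 and 0.06 without library 3. Coro1a, an actin regulator, kept this order at 2.72, 8.92 and 11.6 CPM in DKO-labelled libraries, against 6.29, 4.14 and 3.79 CPM in WT. Its log2 fold change was 0.74 (SE 0.53, adjusted p 0.684 by edgeR), and 0.30 without library 3.

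Ptprc, the leukocyte phosphatase CD45, had 11, 91 and 170 counts in DKO-labelled libraries 1, 2 and 3, against 29, 15 and 20 counts in WT. That is 0.454, 2.33 and 3.0 CPM in DKO-labelled libraries, against 1.08, 0.731 and 0.998 CPM in WT, and library 1 was the lowest of the 6. The log2 fold change was 1.08 (SE 0.65, adjusted p 0.642 by edgeR), and 0.60 without library 3. Per length, Ptprc averaged 0.105 RPKM in the libraries labelled DKO and 0.0511 RPKM in WT. Lcp1 averaged 35.0 RPKM in the libraries labelled DKO and 26.6 RPKM in WT, and which cells made its RNA was not tested. Laptm5, a lysosomal protein of blood cells, stood at 15.9, 24.8 and 26.5 CPM in DKO-labelled libraries, against 19.4, 17.1 and 13 CPM in WT (log2 fold change 0.46, SE 0.25, adjusted p 0.621 by edgeR, and 0.30 without library 3). Libraries 2 and 3 lay above WT and library 1 within its range.

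Lysozymes, which cleave bacterial cell walls, were low in all libraries. Lyz2, the main macrophage form, had 15, 32 and 200 counts in DKO-labelled libraries 1, 2 and 3, against 35, 11 and 25 counts in WT. Its paralog Lyz1, known from Paneth cells, had 3, 7 and 47 counts in DKO-labelled libraries, against 8, 5 and 4 counts in WT. The pair share 195 of 1214 stretches of 50 bases in the Lyz1 mRNA (16.1%), so both values are uncertain where such reads were split. Counts of Lyz1 were 0.235 times those of Lyz2 in library 3 labelled DKO, and 0.160 to 0.455 times in WT. The log2 fold change of Lyz2 was 0.73 (SE 0.75, adjusted p 0.755 by edgeR) and turned to -0.51 without library 3.

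In the phagocyte oxidase, which makes superoxide, the members differed. Cybb, the catalytic subunit, had 1, 10 and 116 counts in DKO-labelled libraries 1, 2 and 3, against 10, 3 and 1 counts in WT. Ncf4, a cytosolic subunit, stood at 1.81, 1.56 and 1.69 CPM in DKO-labelled libraries, against 2.79, 1.27 and 1.70 CPM in WT (log2 fold change -0.18, SE 0.34, adjusted p 0.861 by edgeR). The libraries labelled DKO lay within the WT range, in which WT library 1 was the highest, and the log2 fold change of Ncf4 was 0.20 without that library. Of 12 further oxidase and integrin genes, 11 were tested and edgeR called 0, with 1 higher at an unadjusted p under 0.05. Cyba, the membrane partner of Cybb, stood at 124, 227 and 377 CPM in DKO-labelled libraries, against 160, 142 and 163 CPM in WT.

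Azurophil granule genes of granulocyte progenitors were not highest in library 3. Mpo, myeloperoxidase, had 21, 214 and 139 counts in DKO-labelled libraries 1, 2 and 3, against 121, 40 and 39 counts in WT. That is 0.866, 5.49 and 2.45 CPM in DKO-labelled libraries, against 4.51, 1.95 and 1.95 CPM in WT. Library 2 and WT library 1 were the high ones, and the log2 fold change was 0.09 (SE 0.68, adjusted p 0.967 by edgeR). Prtn3, proteinase 3, was likewise highest in library 2 labelled DKO and WT library 1, with 5, 34 and 22 counts in DKO-labelled libraries, against 22, 3 and 6 counts in WT. Its neighbour on chromosome 10, Elane, had 0 counts in all libraries, and Ctsg had 1 count, in WT library 1. Exons of Mpo and Prtn3 overlap other genes on the opposite strand over 15% and 9.18% of their bases, and the strand setting of the counting is among the steps not given in the sources used.

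Per length, the order of the genes differed between library 3 labelled DKO and WT. In library 3 labelled DKO Lcp1 stood at 49.3 RPKM, followed by Cebpa at 12.2, Csf1r at 11.3, Mrc1 at 10.1 and Cd68 at 8.67 RPKM. Other macrophage genes lay below these in that library, with C1qb at 5.93, Tyrobp at 4.73, Cx3cr1 at 1.93 and Adgre1 at 0.539 RPKM. In library 2, where Csf1r was 1.82 RPKM, these 4 stood at 0.306, 0.769, 0.199 and 0.0158 RPKM. In WT the highest mean levels were 26.6 RPKM for Lcp1, 10.6 RPKM for Mrc1, 7.61 RPKM for Fcgr3, 4.35 RPKM for Laptm5 and 3.26 RPKM for Cd68.

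Genes beyond the 33 gave few calls. Of 30 further tissue macrophage genes, 22 were highest in library 3, beside 31.1% of all genes with a count. Some of the 22 had few counts there, such as Cd163 with 2 and Marco with 3 counts. Of the 30, 16 were tested by edgeR and 0 called by edgeR or DESeq2, with 1 higher at an unadjusted p under 0.05. Apoe, a lipid carrier made by many cells, stood at 3462, 4781 and 3839 CPM in the libraries labelled DKO, against 3207, 3268 and 3458 CPM in WT. Of 18 genes of DAP12 and Fc receptor signalling, 11 were tested and 0 called by either tool, with 1 higher and 1 lower at an unadjusted p under 0.05. The kinase gene Lyn was level at 34.3, 35.8 and 37.0 CPM in DKO-labelled libraries, against 35.3, 33.6 and 32.7 CPM in WT, and the phosphatase gene Ptpn6 stood at 19.1, 25.3 and 26.6 CPM in DKO-labelled libraries, against 17.5, 17.7 and 19.2 CPM in WT.

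Of 15 lineage and progenitor factors 13 were tested and 0 called by either tool, with 3 higher and 0 lower at an unadjusted p under 0.05. Maf, a macrophage factor, stood at 115, 163 and 180 CPM in the libraries labelled DKO, against 183, 165 and 151 CPM in WT. Cebpb, another C/EBP factor, stood at 32.9, 54.1 and 58.9 CPM in DKO-labelled libraries, against 30.6, 30.0 and 35.6 CPM in WT. Of 18 cytokine genes and receptors 12 were tested and 0 called by either tool, with 1 higher at an unadjusted p under 0.05. Csf2rb, the shared receptor subunit for GM-CSF, IL-3 and IL-5, was 103, 74.2 and 6.66 CPM in DKO-labelled libraries 1, 2 and 3, against 42.4, 53.2 and 70.3 CPM in WT. Csf2rb was thus lowest in the library where Csf1r was highest, but other receptor genes of this list were not. Of the 17 with a count, 6 were highest in library 3, beside 31.1% of all genes with a count. Among the 6, Csf2ra stood at 3.05, 4.08 and 10.3 CPM in DKO-labelled libraries, against 3.17, 3.07 and 3.44 CPM in WT. Il3ra stood at 7.88, 10.1 and 14.1 CPM in DKO-labelled libraries, against 8.19, 5.31 and 6.54 CPM in WT. Kitl, the ligand of Kit, stood at 41.2, 43.5 and 37.8 CPM in DKO-labelled libraries, against 34.6, 41.8 and 28.7 CPM in WT.

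Markers of other blood cells moved with library 3 labelled DKO in part. Of 15 mature neutrophil genes 12 had a count, and Ngp, Mmp8 and Fcnb had 0. The list summed to 1.57 to 119 CPM in the libraries labelled DKO and 1.95 to 3.72 CPM in WT, and nearly all of the highest sum came from Ltf (76.7 CPM) and Lcn2 (37.4 CPM) in library 3. Ltf and Lcn2, which glandular epithelia also make, were at most 0.384 CPM in every other library, and the neutrophil genes S100a8 and S100a9, named after their values were seen, stood at 0.564 and 0.846 CPM in library 3. The part of these cells in the myeloid levels was not tested.

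Monocyte and antigen presentation genes, 10 with a count, summed to 3.10 to 7.98 CPM in the libraries labelled DKO and 1.80 to 2.54 CPM in WT. DESeq2 called 1 of them higher, H2-Ab1, a class II histocompatibility chain, which stood at 1.69, 1.97 and 4.05 CPM in DKO-labelled libraries, against 0.670, 0.487 and 0.848 CPM in WT (log2 fold change 1.97, SE 0.46, adjusted p 0.313 by edgeR and 0.0176 by DESeq2). Its partner chain H2-Aa had 4, 5 and 9 counts in DKO-labelled libraries, against 2, 0 and 3 counts in WT. Lymphocyte and NK genes, 17 of 18 with a count and Ncr1 at 0, summed to 2.27 to 2.77 CPM in the libraries labelled DKO and 1.95 to 3.17 CPM in WT, so their range in the libraries labelled DKO lay within that of WT. Of 11 mast cell genes 5 had no count, among them Fcer1a, and the sum of 9.47 to 47.4 CPM in the libraries labelled DKO and 10.6 to 15.6 CPM in WT was mostly Gata2, which progenitors also express.

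**Figure D4:**
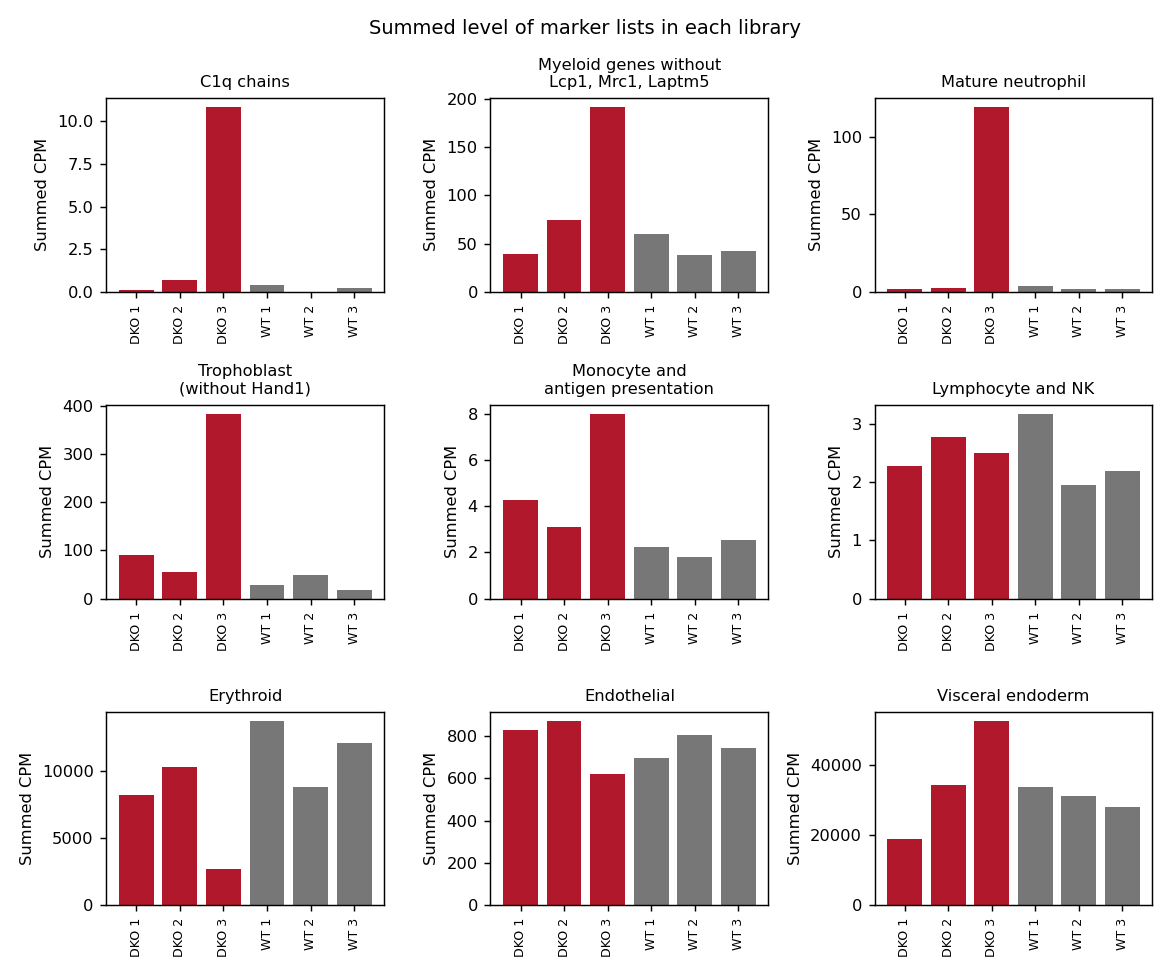
Summed CPM of marker lists in each library, on linear axes from 0 (libraries labelled DKO in red, WT in grey, 1 bar per library with no error). The C1q chains, the mature neutrophil list and the trophoblast list are highest in library 3 labelled DKO, where the erythroid list is lowest at 2715 CPM.

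Summed markers of other cell types of the yolk sac also differed in library 3. Erythroid genes, all 11 measured with a count, summed to 8194, 10324 and 2715 CPM in DKO-labelled libraries 1, 2 and 3, against 13725, 8828 and 12058 CPM in WT. Visceral endoderm genes, 12 of 12 with a count, summed to 18837, 34157 and 52491 CPM in DKO-labelled libraries, against 33616, 30976 and 27983 CPM in WT. Of these sums Afp alone gave 2261, 11500 and 30418 CPM in DKO-labelled libraries, against 9886, 6803 and 7905 CPM in WT. In library 3, 7 of the 12 genes lay above every WT library, beside 38.9% of all genes with a count. The others, Cubn, Apob, Lrp2, Gata4 and Sox17, lay below every WT library. Endothelial genes, 12 of 12 with a count, ran from 617 to 870 CPM in the libraries labelled DKO and from 694 to 802 CPM in WT. Mesoderm genes, 12 of 12 with a count, ran from 2148 to 7839 CPM in the libraries labelled DKO and from 2730 to 4880 CPM in WT. In library 3, 5 of the 12 lay above every WT library, beside 38.9% of all genes with a count. They were led by Col1a1 at 3529, Col3a1 at 2044 and Col1a2 at 1914 CPM. Pdgfra and Foxf1, both at 23.9 CPM there, lay below every WT library, as did Pdgfrb, Hand1, Tbx20, Wt1 and Acta2. Of 12 megakaryocyte genes, which all had a count, DESeq2 called 1 higher, the platelet tubulin gene Tubb1, at 14.0, 20.9 and 27.0 CPM in DKO-labelled libraries, against 9.76, 7.26 and 9.48 CPM in WT (log2 fold change 1.24, SE 0.28, adjusted p 0.312 by edgeR and 0.00479 by DESeq2).

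Measures that change as the embryo grows also ordered the libraries labelled DKO. The early globin Hbb-bh1 had 5.40, 1.10 and 0.521 times the counts of the later Hbb-y in DKO-labelled libraries 1, 2 and 3, against 1.34, 1.97 and 1.83 times in WT. The RNA-binding protein gene Lin28b, active early in development, had 45.3, 15.2 and 2.94 CPM in DKO-labelled libraries, against 23.1, 31.2 and 29.6 CPM in WT. Library 1, which held the lowest level of 13 of the 31 myeloid genes, was highest in both measures, and library 3 was lowest in both. The part of embryo stage in the myeloid levels was not tested.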

How the data were processed

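Messenger RNA of 6 yolk sac libraries was sequenced in single-end reads of 50 bases, per the labels' protocols. Raw read counts by gene symbol, as the authors deposited them, were the only values used. The submitters' processing notes name the mm10 build, SAMtools and DESeq2 without role or version. The headers name subset BAM files, and what was subset is not given in the sources used here. Library totals ran from 20040601 to 56732836 counts, and no pair of libraries agreed within sampling noise (chi-square per degree of freedom at least 11.2). Intervals of counts and the floor of 3 counts cover counting error only.

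CPM are counts over library totals. RPKM were computed over merged GENCODE M21 exons (GRCm38, the assembly of mm10). The groups were compared with edgeR 4.0.16 in R 4.3.3 (quasi-likelihood test, TMM scaling, filterByExpr, robust shrinkage, group as the only term), fitted on all genes. Dividing the absolute log2 fold change by the square root of F gave the standard error. Alternatives were DESeq2 1.42.0, limma-voom (limma 3.58.1), other scalings and filters, a replicate block and each library left out. The edgeR script was tested on simulated data. Log2 differences by library used a prior count of 2.

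The members and lists were chosen with earlier results of these data known. Per-library values are given for genes with a mean of at least 5 CPM, a call by edgeR or DESeq2, or groups that do not overlap, and other genes were added after their values were seen. From each further list the text takes genes called by either tool, or else the 2 with the highest mean CPM. For marker lists of other cell types the sums are given in place of these 2. Of the listed genes, Ahsp matched no row. Some genes that this rule takes are not reported here.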

Additional observations from a re-analysis of the deposited data

How the results depend on the processing

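The count of myeloid genes called was 0 under every edgeR and limma-voom setting tried with all 6 libraries, and 1 with DESeq2 (C1qb). With each library left out it ran from 0 to 1 by edgeR and, in an alternative chosen after seeing the data, from 0 to 11 by DESeq2 (11 without library 1 labelled DKO, 1 without library 2 and 0 without library 3 or any WT library). Over all genes 5 were called, and 296 with DESeq2, 8 without a filter, 1 with a replicate block and 0 to 634 with each library left out. Same-numbered libraries did not deviate together (correlations of -0.37, -0.28 and -0.19). With 3 libraries per group this check cannot show whether the numbers pair them. The block called 0 myeloid genes. Of 282 fold changes recomputed for the 19 genes tested, 270 kept their direction and 12 changed it, in 7 genes. Without library 3 labelled DKO these were Cx3cr1 (-0.10), Fcer1g (-0.47) and Lyz2 (-0.51), and without library 2 labelled DKO Mrc1 (-0.077) and Mpo (-0.72). Without WT library 1 Fcgr3 stood at 0.027 and Ncf4 at 0.20, and without WT library 2 or 3 Mpo stood at -0.12 and -0.13. Mpo was -0.10 with limma-voom and -0.077 with the block, where Fcer1g was -0.013. With each library left out, Cx3cr1 ran from -0.10 to 4.45, Fcer1g from -0.47 to 0.73, Fcgr3 from -0.31 to 0.027, Mrc1 from -0.077 to 0.22, Lyz2 from -0.51 to 1.11, Ncf4 from -0.41 to 0.20 and Mpo from -0.72 to 0.61. The cause was not tested. The summed level of the 33 genes had a log2 ratio, libraries labelled DKO over WT, of 0.46, 0.48 under each other scaling, and 0.12 (without library 3 labelled DKO) to 0.74 (without library 1) with each library left out. Without Lcp1, Mrc1 and Laptm5, a choice made after seeing the data, it was 1.11, and 0.27 to 1.5. At these depths a gene under 0.150 CPM could not be told from absent in the shallowest library.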

Other observations

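Several genes of early blood progenitors, chosen after their values were seen, were low in library 3 labelled DKO, where most macrophage genes were highest. That library was also the lowest for 38.1% of all genes with a mean of at least 1 CPM. Runx1, a factor needed for definitive blood, stood at 25.8, 12.8 and 4.25 CPM in DKO-labelled libraries 1, 2 and 3, against 15, 14.9 and 18.4 CPM in WT. Ikzf1, which encodes the blood factor Ikaros, stood at 40.5, 26.6 and 2.93 CPM in those libraries, against 42.7, 30.6 and 36.0 CPM in WT. Csf2rb2, a paralog of Csf2rb, stood at 37.5, 30.0 and 2.63 CPM in those libraries, against 15.2, 19.5 and 19.96 CPM in WT, and values of the pair are uncertain where reads were shared. Gata2 was high in library 1, at 45.9, 10.2 and 7.44 CPM in DKO-labelled libraries 1, 2 and 3, against 8.49, 14.3 and 9.58 CPM in WT. None of these genes passed the threshold of edgeR between the groups.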
